A study of Homo sapiens with 19 samples.

Results

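Spheres of MDA-MB-231 cells kept in suspension for 5 d were compared with spheres of the same line kept for 16 h. MDA-MB-231 is an established human breast cancer line that lacks estrogen receptor and has mesenchymal features. The comparison rests on 4 of the 19 RNA-seq libraries of the study, 2 at each time. Both sphere groups floated in non-adherent plates in DMEM/F12 with B27, a serum substitute, and with 20 ng/ml EGF and 20 ng/ml FGF. Time in suspension is what the labels let differ between them, and they do not say whether medium was renewed. Values of 2 libraries of adherent cells, grown in DMEM with 10% fetal calf serum, are given beside the spheres as a reference level without a test. Levels also stand beside 5 libraries of spheres kept for 48 h after transfection with a control siRNA. All groups are of 1 line, and nothing in the labels says whether replicates were separate cultures, so the p-values below measure only the spread between these libraries.

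Cells that lose their attachment stop receiving signals through integrins and matrix, and many die or arrest. Those that survive in serum-free suspension clump, deposit their own matrix and later divide as floating spheres. Cultured cells take up cholesterol from serum lipoproteins where there are any and otherwise make it, and the interior of a cell cluster can become short of oxygen.

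The line's known markers were present at both times. Vimentin (VIM), the intermediate filament of mesenchymal cells, had 61241 and 62201 at 16 h against 33890.4 and 34383 at 5 d, in normalized counts, which are reads per gene divided by a size factor of the library. CD44 and EGFR were detected in all 4 sphere libraries at over 2000 normalized counts, whereas estrogen receptor (ESR1) and E-cadherin (CDH1) lay between 0 and 9.24 in them. Of the 9 genes listed as held by the line 1 rose and 4 fell, with a median log2 fold change of -0.16, which turned to 0.04 when libraries were scaled by their totals and to 0.06 after quantile normalization. Of 9 blood cell markers 3 were in the table, together 0.000238% to 0.00042% of normalized counts in each sphere library. CD14, the 1 that passed the filter, was not called, and PTPRC had 0 and 0 at 16 h against 2.07 and 9.24 at 5 d. Reads per sphere library numbered 10080055 and 8808301 at 16 h and 8981467 and 6104222 at 5 d. Between the 2 libraries of a sphere group, the variance of genes with 20 to 10000 reads was 1.97 to 2.27 times that of read counting, whatever the depth. The same ratio between control siRNA libraries ran from 1.52 in weakly to 25.3 in strongly expressed genes. The sphere libraries thus differed little within a group, and small changes passed the test. For every called gene named below, both libraries of one group lay above both of the other.

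Of 13789 genes with a mean of at least 10 normalized counts over the 6 culture libraries, 6665 changed between 16 h and 5 d, or 48.3%. Expression was higher at 5 d for 3148 genes, 22.8% of those tested, and lower for 3517 genes, 25.5%. The counts of each gene list below are to be read against these shares. A gene was called changed at an adjusted p under 0.05 (limma, Benjamini-Hochberg). Most changes were modest, since 720 of the rises and 687 of the falls reached 2-fold. Changes of 8-fold or more numbered 20 up and 40 down. When libraries were scaled by their totals instead of the authors' size factors, the median of all genes moved from 0.00 to 0.20 on the log2 scale and the calls became 5137 higher and 2140 lower, or 70.6% higher against 47.2%. Directions below are relative to the authors' scaling.

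**Figure D1:**
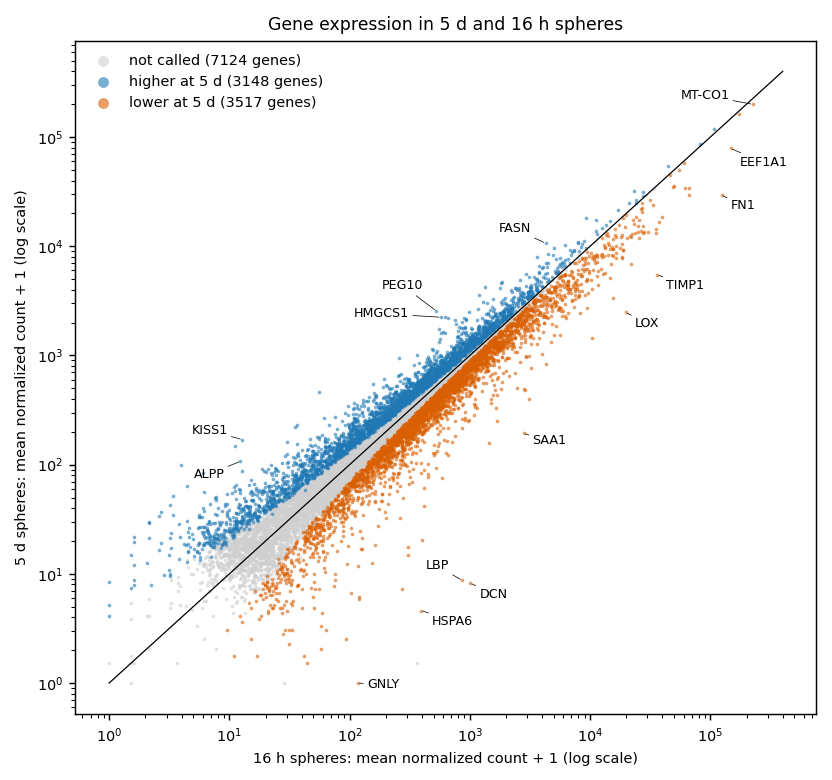
Mean normalized count plus 1 of each tested gene in the 2 libraries of 5 d spheres (vertical, log scale) against the 2 libraries of 16 h spheres (horizontal, log scale), with the diagonal drawn. Blue points are the 3148 genes called higher at 5 d and orange points the 3517 called lower, and the widest departures lie below the diagonal, with DCN, LBP, HSPA6 and GNLY.

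Decorin, LBP, GNLY and HSPA6 were among the 15 largest falls. Decorin (DCN), a small proteoglycan that binds collagen, had 1014 and 999 at 16 h against 8.28 and 6.16 at 5 d. At 5 d it rested on 8 and 4 reads, and the fold was 136-fold lower with a 95% interval of 77.4 to 263 (exact, on reads, counting error only). LBP, the plasma protein that binds bacterial lipopolysaccharide, went from 845 and 871 to 6.21 and 9.24, a 115-fold fall (65.8 to 224). Both were all but absent from adherent cells, with 0 and 0.609 for DCN and 1.51 and 0.609 for LBP, so 16 h spheres stood alone among the 3 cultures. Granulysin (GNLY), known as a granule protein of cytotoxic lymphocytes, had 118 and 114 at 16 h and no read in any 5 d or adherent library. Against a floor of 3 reads over the group, GNLY was at least 62.5-fold lower at 5 d. HSPA6, a strictly stress-induced HSP70 protein, had 402 and 386 at 16 h against 4.14 and 3.08 at 5 d, with 4 and 2 reads at 5 d and a fold of 106 (48.5 to 290.3).

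Chemokines, an interleukin receptor and a bone morphogenetic protein were among the other large falls. CCL20, which attracts lymphocytes and dendritic cells, had 328 and 285 at 16 h against 15.5 and 12.3 at 5 d, a log2 fold change of -4.37 ± 0.42 (SE; adjusted p = 4.28e-11, limma). CCL26 had 108 and 96.5 at 16 h against 5.18 and 6.16 at 5 d, and at 5 d it was also below its 46.0 and 33.5 in adherent cells. IL1RL1, the receptor of interleukin 33, had 104 and 131 at 16 h against 5.18 and 4.62 at 5 d. The transcription factor gene ATOH8 had 106 and 131 at 16 h against 4.14 and 6.16 at 5 d. BMP6 had 155 and 148 at 16 h against 15.5 and 7.70 at 5 d. None of these groups of libraries overlapped.

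The largest rises were smaller than the largest falls, and all 15 were of RNAs that adherent cells held at a higher level than 16 h spheres. KISS1, the precursor of kisspeptin and named for suppression of metastasis, had 6.4 and 17.1 at 16 h against 173 and 165 at 5 d, with 980.2 and 979.6 in adherent cells. ALPP, the placental alkaline phosphatase, had 11.7 and 11 at 16 h against 95.2 and 117 at 5 d, again far under the 1131 and 1113 of adherent cells. The transporter gene SLCO4C1 had 10.7 and 9.77 at 16 h against 189 and 106 at 5 d, and its 5 d libraries spanned the adherent level of 146 and 129.7. PEG10, a gene derived from a retrotransposon and expressed in placenta, had 524 and 523 at 16 h against 2528 and 2594 at 5 d, a 4.89-fold rise that ended above the 2122 and 2015 of adherent cells. KISS1 and ALPP therefore came back in part, and SLCO4C1 and PEG10 came back to the adherent level or past it.

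AP1M2, AP1S3 and LLGL2 were also among the 15 largest rises. AP1M2, a subunit of the AP-1 clathrin adaptor found in epithelia, had 42.6 and 28.1 at 16 h against 236 and 223 at 5 d (log2 fold change 2.69 ± 0.18, SE). AP1S3, a further subunit of that adaptor, had 27.7 and 28.1 at 16 h against 124 and 114 at 5 d. LLGL2, a basolateral polarity protein, had 38.4 and 30.5 at 16 h against 211 and 225 at 5 d. Both adaptor subunits and LLGL2 were thus several-fold higher in each 5 d library than in either 16 h library. FBP1, the gluconeogenic fructose-1,6-bisphosphatase, had 37.3 and 20.8 at 16 h against 165 and 159 at 5 d, and DNAH2, an axonemal dynein heavy chain, had 67.2 and 41.5 at 16 h against 494 and 424 at 5 d. PIK3C2B, a class II phosphoinositide 3-kinase, had 33.0 and 25.6 at 16 h against 119 and 129 at 5 d, above its 45.3 and 45.7 in adherent cells. The remaining 5 of the 15 were ILDR2 (2.03 on the log2 scale), HMGCS1 (1.97), MCM10 (1.92), SLC16A13 (1.89) and MYO18A (1.88).

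**Figure D2:**
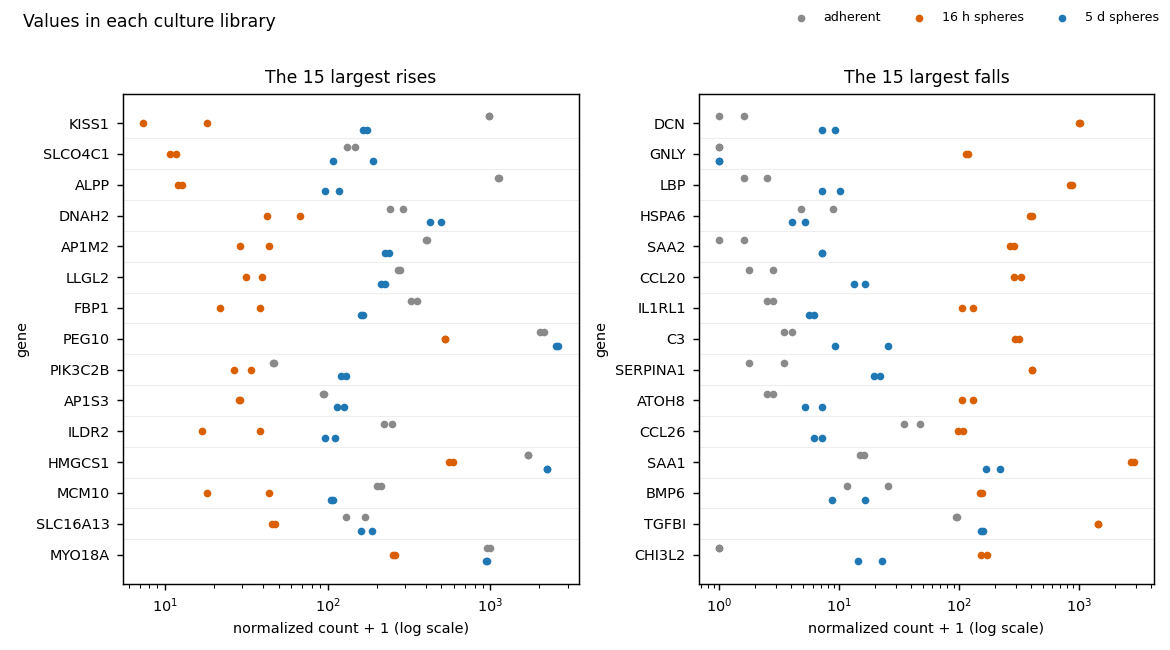
Normalized count plus 1 (horizontal, log scale) of the 15 largest rises (left) and the 15 largest falls (right) in each library of adherent cells (grey), 16 h spheres (orange) and 5 d spheres (blue), 1 point per library. In the right panel the 16 h points stand apart to the right, from 96.5 normalized counts for CCL26 to 2860.3 for SAA1, and the 5 d points of DCN, LBP, HSPA6, SAA2 and GNLY lie below 10.

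Acute phase and complement genes, which liver and inflamed tissue secrete into plasma, fell at 5 d. Of 29 listed genes 23 were in the table and 17 passed the filter, of which 14 fell and 1 rose, beside 25.5% lower and 22.8% higher among all genes tested. The median log2 fold change was -2.29 against 0.00 over all genes. Serum amyloid A1 (SAA1) had 2732 and 2860.3 at 16 h against 217 and 166 at 5 d, and SAA2 had 285 and 264 at 16 h against 6.21 and 6.16 at 5 d. The SAA genes are near-identical copies, so their reads may have been shared between them. Complement C3 had 294 and 316 at 16 h against 8.28 and 24.6 at 5 d. The antiprotease SERPINA1 had 403 and 402 at 16 h against 20.7 and 18.5 at 5 d. The complement proteases followed, C1S with 77.8 and 109 at 16 h against 10.4 and 12.3 at 5 d and C1R with 255 and 271 at 16 h against 29 and 33.9 at 5 d, though the call for C1R was lost without the first 5 d library (adjusted p = 0.0575, limma). Ceruloplasmin (CP), the copper carrier of plasma, had 247 and 245 at 16 h against 62.1 and 72.4 at 5 d. Each of these stood at a higher level in both 16 h libraries than in any 5 d or adherent library. The orosomucoid ORM1 did not pass the filter and had 24.5 and 25.6 at 16 h against 0 and 3.08 at 5 d.

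In a list of cytokines, chemokines and related inflammatory genes, most of those that passed the filter fell as well. Of 28 listed genes 21 passed, 13 fell, the growth factors CSF1 and LIF rose, 6 were not called, and the median was -1.69. The falls include PTGS2, SOD2 and ICAM1, which are not cytokines, and the uncalled genes include the receptor IL1R1. The neutrophil chemokines CXCL1, CXCL2, CXCL3 and IL8 all fell: CXCL1 had 374 and 407 at 16 h against 80.7 and 84.7 at 5 d, and IL8 had 892 and 811 at 16 h against 263 and 262 at 5 d. CSF3, the granulocyte colony-stimulating factor, had 447 and 449 at 16 h against 112 and 89.4 at 5 d. The prostaglandin synthase PTGS2 had 483 and 503 at 16 h against 111 and 142 at 5 d, which brought it under its adherent level of 250.5 and 248. Mitochondrial superoxide dismutase (SOD2), a classic target of NF-kappaB, went from 4773 and 4767 to 1250.5 and 1400.4. Interleukin 6 (IL6) was not called, with 101.3 and 91.6 at 16 h against 80.7 and 83.2 at 5 d. LIF rose by 0.30 on the log2 scale, and its call was lost without the second library of either group, at 0.16 and 0.24, by DESeq2, and when limma's moderation had no trend. CSF1, the macrophage colony-stimulating factor, rose from 1311 and 1359 to 4292 and 4161, a log2 fold change of 1.66 ± 0.04 (SE; adjusted p = 3.06e-30, limma). Of 15 tested genes listed with the subunits and inhibitors of NF-kappaB, 10 fell and none rose, with 5 not called and a median of -0.47. The list also holds the signalling genes IRAK2, which fell, and TRAF1, which was not called. With libraries scaled by their totals 7 fell and 2 rose (median -0.26). The falls were widest in TNFAIP3 and NFKBIZ. TNFAIP3, a feedback inhibitor, had 741 and 754 at 16 h against 169.8 and 197 at 5 d. NFKBIZ had 272 and 282 at 16 h against 115 and 95.5 at 5 d, while the subunit NFKB1 was not called at 0.13.

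Targets of the hypoxia-inducible factors, which raise oxygen supply, glucose uptake and matrix crosslinking, fell in nearly the whole list. Of 33 listed genes 32 passed the filter, 28 fell and 1 rose, 15 of the falls reached 2-fold, and the median was -0.94. The factors bind the letters ACGTG in DNA. On either strand these letters were found in the 250 bases before the start of 13 of the 25 members with a promoter in RefSeq, or 52.0%, against 18.7% of 27305 human promoters of that length. The stretches of 5 members with large falls are shown because they hold the letters, which are in capitals, 5′ to 3′ on the gene's own strand (RefSeq, GRCh38.p14). A match is a description of the sequence and was not tested as a binding site.
CA9, chr9:35673868-35673927, plus strand: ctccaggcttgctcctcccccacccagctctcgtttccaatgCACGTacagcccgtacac
LOX, chr5:122078290-122078384, minus strand: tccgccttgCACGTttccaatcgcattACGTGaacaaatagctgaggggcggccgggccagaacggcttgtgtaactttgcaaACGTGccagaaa
P4HA1, chr10:73096927-73096976, minus strand: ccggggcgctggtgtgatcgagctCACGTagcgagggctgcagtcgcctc
ANGPTL4, chr19:8363905-8363954, plus strand: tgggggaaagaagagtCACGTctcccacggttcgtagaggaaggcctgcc
BHLHE40, chr3:4979187-4979296, plus strand: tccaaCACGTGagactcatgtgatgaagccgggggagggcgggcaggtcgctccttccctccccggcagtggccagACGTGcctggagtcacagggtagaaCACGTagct

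Lysyl oxidase (LOX), which crosslinks collagen, had 19713 and 19933 at 16 h against 2532 and 2416 at 5 d, a log2 fold change of -3.0 ± 0.03 (SE; adjusted p = 1.44e-39, limma). Its stretch above holds the letters 3 times. Carbonic anhydrase 9 (CA9), a standard hypoxia marker, had 553 and 617 at 16 h against 81.8 and 67.8 at 5 d and was near absent from adherent cells, with 4.53 and 3.04. ANGPTL4, an inhibitor of lipoprotein lipase, had 5503 and 5829 at 16 h against 1507 and 1601 at 5 d and 7.55 and 8.52 in adherent cells. For CA9 and ANGPTL4 the 5 d level thus stayed well above that of attached cells. The collagen prolyl hydroxylase P4HA1 had 3706 and 3587 at 16 h against 1792 and 1786 at 5 d. The lipid droplet protein HILPDA had 544 and 497 at 16 h against 77.6 and 105 at 5 d. The glucose transporters fell together, SLC2A1 from 9248 and 8899 to 3609 and 3576 and SLC2A3 from 3167 and 3091 to 978 and 1009. VEGFA, the main inducer of blood vessels, had 7712 and 7768 at 16 h against 3945 and 4169 at 5 d. The pyruvate dehydrogenase kinase PDK1 was not called, with a log2 fold change of 0.27. The collagen crosslinker LOXL2 rose, from 2561 and 2546 to 3264 and 3368.

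Among the factors themselves and their regulators, 10 of 11 listed genes passed the filter, 2 rose and 5 fell, with a median of -0.25. The calls were 2 rises and 2 falls, at -0.05, with libraries scaled by their totals. The prolyl hydroxylase EGLN3, itself a hypoxia target that marks the factors for decay, had 1713 and 1623 at 16 h against 414 and 448 at 5 d. CITED2, which competes with them for a coactivator, had 4169.7 and 4095 at 16 h against 1975 and 1967 at 5 d. HIF1AN, an asparaginyl hydroxylase that silences them, rose by 0.39 on the log2 scale. Glycolysis genes moved down, 15 of 19 with 2 higher and a median of -0.48. With libraries scaled by their totals 11 fell and 4 rose (median -0.28), and after quantile normalization 10 fell and 3 rose (median -0.18). Without the trend in limma's moderation 11 fell and none rose. Enolase 2 (ENO2) had 1524 and 1596 at 16 h against 457 and 414 at 5 d, and lactate dehydrogenase A (LDHA) had 66467 and 65746 at 16 h against 29574 and 29632 at 5 d. GAPDH, often used as a reference gene, went from 66509 and 67104 to 33578 and 34224, a log2 fold change of -0.98 ± 0.01 (SE). Hexokinase 2 (HK2) had 3090.0 and 3063 at 16 h against 1956 and 2030.5 at 5 d and came back to its adherent level of 2019 and 1924. LDHA and GAPDH stayed above their adherent levels of 11410.3 and 11384 and 23219.8 and 23149. In the small list of MondoA, a glucose sensor, and its targets, 4 of 9 fell and 1 rose, with a median of -0.03 that turned to 0.01 after quantile normalization and to 0.17, at 3 rises and 3 falls, with libraries scaled by their totals. TXNIP, its best known target and a brake on glucose uptake, had 7327 and 7579.5 at 16 h against 3597 and 3627 at 5 d and, in adherent cells, 80.7 and 85.8. The paralog gene MLXIPL rose, from 10.7 and 7.33 to 35.2 and 27.7. The E-box CACGTG was in 3 of the 7 members with a promoter window, 42.9% against 6.49% of all promoters.

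Genes induced by glucocorticoids fell in most of the list. Of 30 listed genes 26 passed the filter, 22 fell and 1 rose, and the median was -0.73. ZBTB16, a zinc finger protein strongly induced by steroids, had 55.4 and 58.6 at 16 h against 2.07 and 0 at 5 d, resting on 2 reads and 0 reads at 5 d, a 46.0-fold fall (95% interval 12.4 to 385). TSC22D3, also called GILZ, had 6216 and 6374 at 16 h against 2214 and 2163 at 5 d and was still above the 262 and 226 of adherent cells. The phosphatase DUSP1 had 5091 and 4905 at 16 h against 1596 and 1480.5 at 5 d. The factor CEBPD had 1054 and 1128 at 16 h against 360.2 and 356 at 5 d. The metallothionein MT1X had 9551 and 9360.2 at 16 h against 2674 and 2725 at 5 d, though metallothioneins are near-identical copies that may share reads. HSD11B1, which regenerates active cortisol, had 185 and 202 at 16 h against 59.0 and 67.8 at 5 d. FKBP5, a chaperone of the receptor, had 10513 and 10016 at 16 h against 8664 and 8692 at 5 d, a log2 fold change of -0.24 that turned to 0.17 after quantile normalization and lost its call when libraries were scaled by their totals or limma's moderation had no trend. It kept a level far above the 305 and 337 of adherent cells. The receptor NR3C1 was not called, with 1167 and 1043 at 16 h against 981 and 1125 at 5 d. CRISPLD2 rose, from 20.3 and 24.4 to 75.6 and 94.0. The letters TGTTCT, a receptor binding sequence, were in 1 of 22 promoter windows, 4.55% against 12.4% of all.

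Genes of the unfolded protein response, which answers misfolded protein in the endoplasmic reticulum, fell in 18 of 22 cases with no rise, at a median of -0.47, or in 14 cases with 3 rises with libraries scaled by their totals. The cochaperone DNAJB9 had 864 and 949 at 16 h against 242 and 294 at 5 d. The chaperone HSPA5 had 25002 and 24576 at 16 h against 13341 and 13391 at 5 d. Its partner HSP90B1 had 27454 and 27774 at 16 h against 15225 and 15221 at 5 d. XBP1, the factor spliced in this response, had 1423 and 1408 at 16 h against 706 and 772 at 5 d, which was below its adherent level of 1100.2 and 1149. All 4 genes were therefore lower in each 5 d library than in either 16 h library. Of 15 heat shock genes that passed the filter, of 17 listed, 10 fell and 3 rose (median -0.30), or 8 and 6 after quantile normalization. The stress-induced HSPA1A, which has the near-identical copy HSPA1B, had 896 and 1082 at 16 h against 247 and 262 at 5 d. The cochaperone DNAJB1 had 4464 and 4541 at 16 h against 2114 and 2316 at 5 d. The cytosolic HSP90AA1, HSPA4 and BAG3 rose, with log2 fold changes of 0.34, 0.42 and 0.43.

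Matrix genes fell at 5 d for the most part, from high levels at 16 h. Of 44 listed collagens, laminins and other matrix genes 33 passed the filter, 19 fell and 8 rose, with a median of -0.46. Fibronectin (FN1), the main ligand of integrin alpha 5 beta 1, had 124258 and 123535 at 16 h against 28988 and 29895 at 5 d. FN1 took 1.16% and 1.15% of all normalized counts at 16 h, 0.312% and 0.318% at 5 d and under 0.04% in adherent cells. TGFBI, a matrix protein induced by TGF-beta, had 1438 and 1430.2 at 16 h against 158 and 153 at 5 d (log2 fold change -3.20 ± 0.12, SE). Collagen VII (COL7A1) had 410.4 and 485 at 16 h against 80.7 and 70.9 at 5 d. COL6A3 went from 2489 and 2719 to 869 and 867 and COL18A1 from 1478 and 1513 to 369.6 and 367. FN1, COL6A3 and COL7A1 remained above their adherent levels of 3293 and 3506, 46.8 and 58.4 and 13.6 and 14. Thrombospondin 1 (THBS1) rose from 2916 and 2915 to 4266 and 4403. The transmembrane collagen COL13A1 rose from 789.8 and 815 to 1535 and 1429.7, and EFEMP1, a fibulin, rose from 95.9 and 119.7 to 387 and 351. Matrilin 2 (MATN2) also rose, with 13.9 and 14.7 at 16 h against 80.7 and 61.6 at 5 d. DCN, LUM and 8 other genes were also listed as markers of endothelial and stromal cells. Of these 10, 7 were in the table and 6 passed the filter, 3 fell and 1 rose, and their summed share of normalized counts was 0.0135% and 0.0144% at 16 h and 0.0049% and 0.00369% at 5 d. LUM, a proteoglycan related to DCN, had 14.9 and 35.4 at 16 h against 3.11 and 4.62 at 5 d. Collagen I (COL1A1), a defining product of fibroblasts, had 67.2 and 52.5 at 16 h against 43.5 and 46.2 at 5 d and was not called. The endothelial VWF had 0 and 1.22 at 16 h against 2.07 and 3.08 at 5 d. KDR, also listed as endothelial, fell from 302 and 383 to 299 and 203, with 178 and 184 in adherent cells. Its call was lost by DESeq2, with libraries scaled by their totals and when limma's moderation had no trend. Its log2 fold change of -0.46 became -0.29 without the second 16 h library and -0.18 without the second 5 d library. The 1 riser was PDGFRB, at 1.11 on the log2 scale and 0.73 without the first 5 d library. The part of endothelial or stromal cells in the fall of DCN was not tested.

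Integrins, the receptors of these ligands, showed 8 falls and 2 rises among 12 of 16 listed genes that passed the filter (median -0.22). This balance rests on the scaling, since the list had 3 falls and 5 rises (median -0.02) with libraries scaled by their totals and 5 falls and 4 rises after quantile normalization. Integrin alpha 5 (ITGA5), which pairs with beta 1 to bind fibronectin, had 18848 and 18222 at 16 h against 7649.9 and 7939 at 5 d. The collagen receptor chain ITGA10 had 1264 and 1273 at 16 h against 436 and 504 at 5 d. Integrin alpha 6 (ITGA6), a laminin receptor and marker of mammary stem cells, moved the other way, from 2735 and 2532 to 5026 and 4785, above its adherent 2148 and 2164. Among proteases and their inhibitors, 16 of 24 listed genes passed the filter, 9 fell and 4 rose, with a median of -0.62. The metalloproteinase inhibitor TIMP1 had 36135 and 36342 at 16 h against 5317 and 5652 at 5 d, a 6.61-fold fall of an abundant RNA. Collagenase MMP1 had 2835 and 2865 at 16 h against 508 and 454 at 5 d, and MMP14, a membrane-bound protease, had 15136 and 15125 at 16 h against 8360.0 and 8392 at 5 d. TIMP3 rose, from 1845 and 1848 to 4849.8 and 4636, which left it below the 12578 and 12706 of adherent cells, and PLAT, the tissue plasminogen activator, rose from 2997 and 3199.9 to 5129 and 5276. So TIMP1 and TIMP3 moved in opposite directions, and each moved towards its adherent level.

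**Figure D3:**
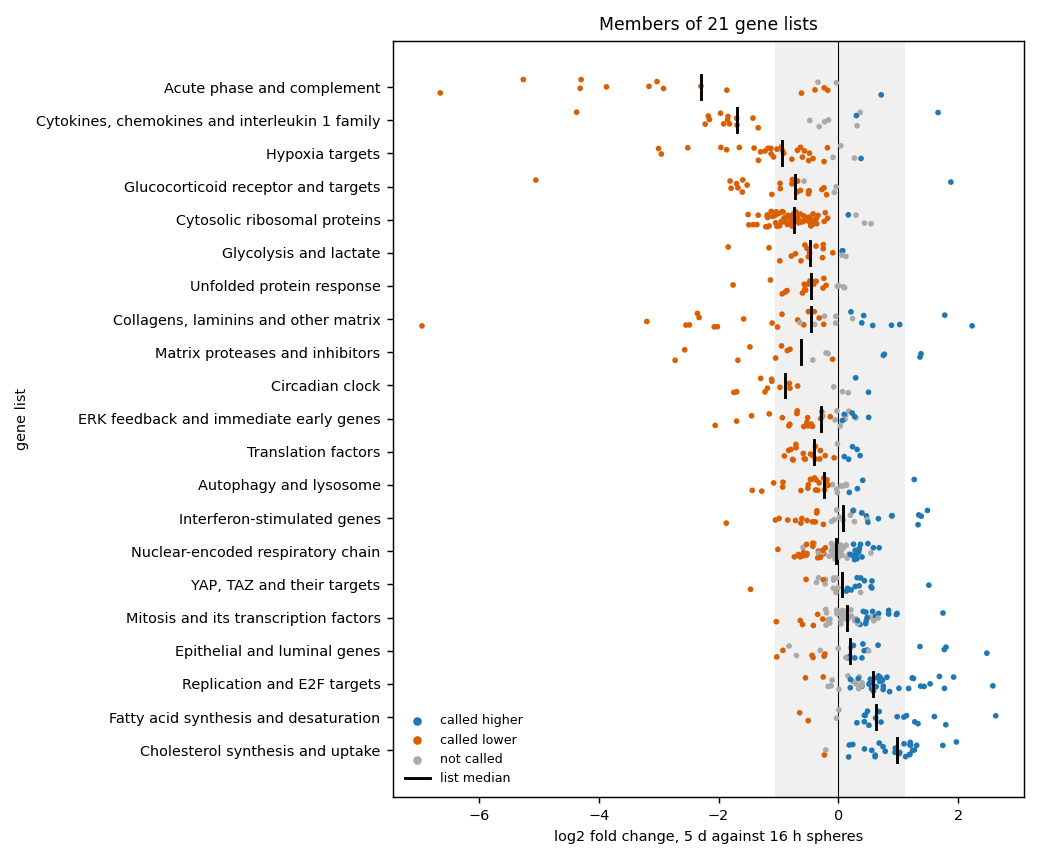
Log2 fold change of 5 d against 16 h spheres (horizontal) for the members of 21 gene lists that passed the filter, 1 point per gene, blue where called higher, orange where called lower and grey where not called, with the list median as a black bar. The grey band holds the middle 90% of all 13789 genes, and list medians run from -2.29 for acute phase and complement genes to 0.98 for cholesterol genes.

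Most genes of cholesterol synthesis and uptake rose. Of 29 listed genes 28 passed the filter, 26 rose and 1 fell, 14 of the rises reached 2-fold, and the median was 0.98. HMGCS1, which makes the precursor of mevalonate, had 588 and 556 at 16 h against 2238 and 2238 at 5 d, a 3.91-fold rise. ACAT2, which supplies acetoacetyl-CoA in the cytosol, had 643 and 674 at 16 h against 2168 and 2237 at 5 d. Later steps moved alike, FDPS from 1319.5 and 1245 to 3074 and 3106, LSS from 912 and 940.4 to 2095 and 2157 and DHCR7 from 1549 and 1651 to 2657 and 2702. HMGCS1 ended above its adherent 1702 and 1705, while DHCR7 stayed below 3571 and 3532. SREBF2, the factor that drives these genes, rose by 0.18 on the log2 scale, a call that was lost when limma's moderation had no trend. The letters TCACNCCAC of the sterol response element were in 1 of 21 promoter windows, 4.76% against 0.875% of all promoters, and that window was the one of SREBF2 itself.

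Fatty acid synthesis rose too, with 17 of 21 genes higher, 2 lower and a median of 0.62. Fatty acid synthase (FASN) had 4366 and 4146 at 16 h against 10708 and 10644 at 5 d. ATP citrate lyase (ACLY) had 3678 and 3546 at 16 h against 7831 and 8031 at 5 d, and acetyl-CoA carboxylase (ACACA) had 853 and 826 at 16 h against 1758 and 1819 at 5 d. The desaturase SCD had 9168 and 9267 at 16 h against 18106 and 18239 at 5 d. ACSS2, which makes acetyl-CoA from acetate, had 1219 and 1150.5 at 16 h against 3559 and 3627 at 5 d, a larger change of 1.6 ± 0.05 (SE) on the log2 scale. FASN, ACLY, SCD and ACSS2 all exceeded their adherent levels at 5 d, the last with 1901 and 1809 in adherent cells. PNPLA3, a lipase gene under control of lipogenic factors, rose from 5.33 and 4.89 to 41.4 and 32.4. SREBF1, which codes for the main lipogenic factor, was not called, with 1225 and 1125 at 16 h against 1153 and 1206 at 5 d.

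Genes of cholesterol efflux under liver X receptors showed 2 rises and 5 falls among 9 of 10 listed (median -0.22). The exporter ABCA1 had 431 and 365 at 16 h against 154 and 180.2 at 5 d, and NR1H3, 1 of the receptors, rose from 113 and 122 to 178 and 229.5. Genes of lipid droplets and fatty acid oxidation split, with 8 rises and 10 falls among 22 of 27 listed. Their median was -0.17 and turned to 0.03, at 10 rises and 8 falls, under scaling by library totals. Perilipin 2 (PLIN2), the coat of lipid droplets, had 5119 and 5081 at 16 h against 2869 and 2749.9 at 5 d, and DGAT2, which makes triglyceride, had 360.3 and 379.8 at 16 h against 150.1 and 176 at 5 d. The oxidation genes CPT1A, HADHA and ACADM rose, ACADM with 286 and 324 at 16 h against 634 and 562 at 5 d. So droplet genes were among those that fell and oxidation genes among those that rose, but not all members followed. The oxidation gene ACADVL fell, from 1725 and 1618 to 1347 and 1326, and HADHB was not called. G0S2, of the same list, rose by 0.17 on the log2 scale.

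**Figure D4:**
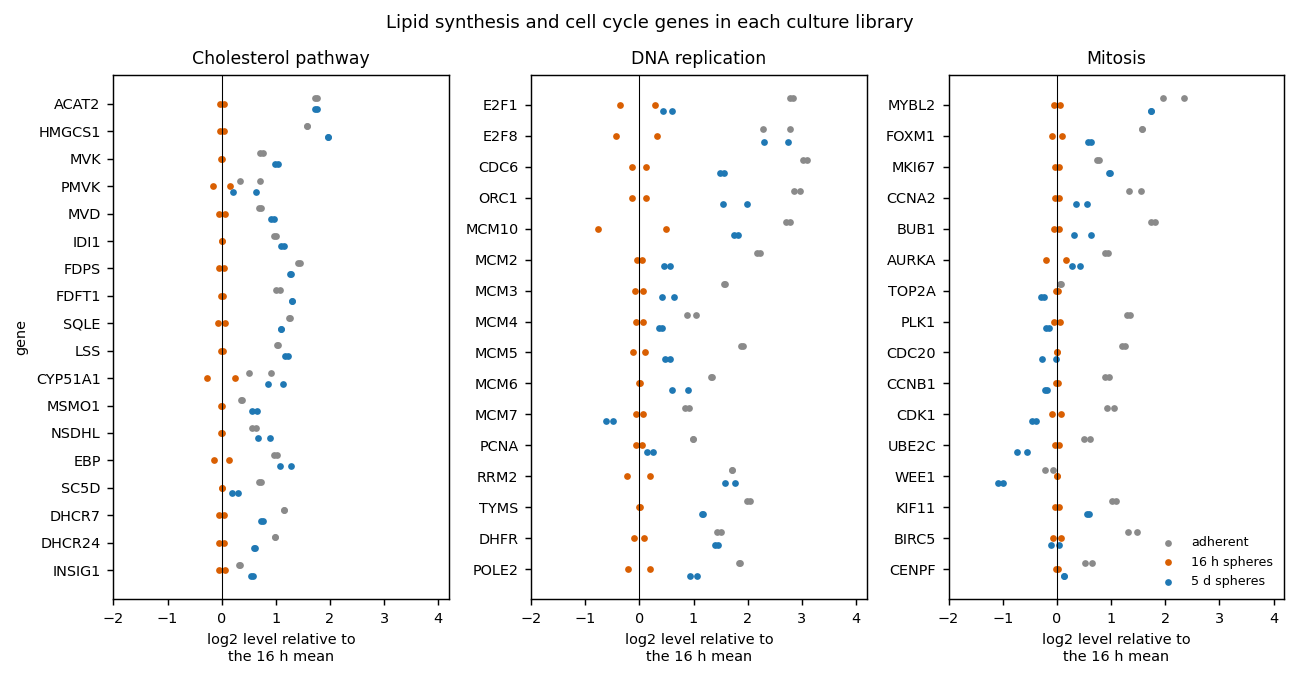
Log2 level of each library relative to the mean of the 16 h spheres (horizontal, after adding 1 normalized count) for genes of the cholesterol pathway, DNA replication and mitosis, with adherent cells in grey, 16 h spheres in orange and 5 d spheres in blue, 1 point per library. The 5 d points of the cholesterol genes lie right of the 16 h points and mostly near or past the adherent ones, those of most replication genes lie between the 2 other cultures, and those of TOP2A, CDK1, UBE2C and WEE1 lie left of the 16 h points.

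DNA replication genes rose in 31 of 45 cases and fell in 2, with a median of 0.58. These genes are switched on by E2F factors before the S phase. RRM2, which makes deoxynucleotides, had 219 and 162 at 16 h against 570.4 and 647 at 5 d, and thymidylate synthase (TYMS) had 215 and 216 at 16 h against 482 and 491 at 5 d. The origin licensing factor CDC6 had 125 and 105 at 16 h against 324 and 340.5 at 5 d. The origin recognition subunit ORC1 had 17.1 and 20.8 at 16 h against 77.6 and 57.0 at 5 d. MCM10, which helps start replication forks, had 42.6 and 17.1 at 16 h against 108 and 103 at 5 d. E2F8, a late E2F factor, had 3.20 and 6.11 at 16 h against 26.9 and 37.0 at 5 d, and rested on 3 and 5 reads at 16 h with a fold of 6.80 (95% interval 3.20 to 16.6). Of the replicative helicase MCM2 to MCM7, 5 subunits rose and MCM7 fell, from 814 and 889 to 605 and 558. In CDC6, ORC1 and MCM10 the 5 d level remained below the adherent 940.2 and 991, 143 and 155 and 211 and 201. Summed over the list, replication genes took 0.0754% and 0.0762% of normalized counts at 16 h, 0.123% and 0.12% at 5 d and 0.25% and 0.251% in adherent cells.

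Of 50 mitotic genes 15 rose, 6 fell and 29 were not called, with a median of 0.14. Among all genes tested 22.8% were higher and 25.5% lower. With libraries scaled by their totals 28 of the mitotic genes rose and 3 fell (median 0.34). Their difference from the replication genes was not tested. MYBL2, a factor that activates mitotic genes, had 37.3 and 34.2 at 16 h against 122 and 122 at 5 d, and MKI67, the Ki-67 proliferation marker, had 878 and 934 at 16 h against 1779 and 1761 at 5 d. FOXM1, a further activator, had 286 and 253 at 16 h against 403 and 419 at 5 d. By contrast the kinase CDK1 fell, with 211 and 237 at 16 h against 171 and 163 at 5 d. Its brake WEE1 fell from 456 and 453 to 214 and 228, and the ubiquitin-conjugating enzyme UBE2C fell from 453 and 435 to 267 and 303. The call for CDK1 was lost without the second 16 h library, at -0.34 on the log2 scale, by DESeq2, and when scaled by library totals, at -0.22. The element TTTGAA of mitotic promoters was in 22 of 41 windows, 53.7% against 13.6% of all promoters. Among inhibitors and drivers of the early cell cycle, 6 rose and 10 fell of 21 in the table out of 24 listed, and the median was -0.13, or 0.07 with 7 rises and 7 falls under scaling by library totals. Without the second 5 d library 3 rose. The inhibitor p21 (CDKN1A) had 3899 and 4228 at 16 h against 1579 and 1727 at 5 d, and cyclin D1 (CCND1) had 3943 and 3962 at 16 h against 6333 and 6204 at 5 d. CDK4 fell, from 1169 and 1148 to 585 and 641, and MYC fell, from 3643 and 3776 to 2481 and 2718.

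Nearly every ribosomal protein RNA tested fell. Of 79 genes tested, out of 80 listed, 75 fell, 1 rose and 3 were not called, with a median of -0.75 and a range from -1.51 to 0.54. Their share of all normalized counts was 7.02% and 7.04% at 16 h, 4.76% and 4.75% at 5 d and 5.86% in both adherent libraries. RPL10 had 14130.3 and 15099 at 16 h against 5338 and 4939 at 5 d, and RPS14 had 5094 and 5315 at 16 h against 1872 and 1818 at 5 d. The stalk protein RPLP0 had 37064 and 38025 at 16 h against 16359.8 and 16812 at 5 d. The 1 riser was RPL36AL, at 0.16 on the log2 scale, and its call was lost when limma's moderation had no trend. Processed copies of these genes are common in the genome, so values of single members are uncertain. Translation factors fell in 18 of 24 tested cases of 26 listed and rose in 5 (median -0.41). The elongation factor EEF1A1, among the most abundant RNAs, had 147075 and 147681 at 16 h against 78686 and 78946 at 5 d, and EEF2 had 22462 and 22441 at 16 h against 12807 and 13129 at 5 d. The cap-binding EIF4E rose, from 502 and 467 to 597 and 647. Genes of ribosome assembly fell in 18 of 28 cases and rose in 2 (median -0.23), with fibrillarin (FBL) at 1795 and 1906 at 16 h against 983 and 967 at 5 d. That list split into 9 falls and 9 rises (median -0.03) with libraries scaled by their totals, and without the trend in limma's moderation it held 9 falls and no rise. Aminoacyl-tRNA synthetases split into 8 higher, 6 lower and 6 not called, at a median of 0.04. These became 12 higher and 1 lower with libraries scaled by their totals, and 4 higher and 2 lower without the trend.

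Nuclear RNAs of the respiratory chain moved in both directions. Of 63 nuclear genes that passed the filter, of 64 listed, 17 rose and 17 fell, with a median of -0.05, shares near the 22.8% and 25.5% of all genes tested. With libraries scaled by their totals 31 rose and 10 fell (median 0.16), and after quantile normalization 19 rose and 15 fell (median 0.03). The complex I subunit NDUFA1 had 747 and 723 at 16 h against 1231 and 1126 at 5 d. The ATP synthase subunit ATP5G2 had 1304 and 1252 at 16 h against 768 and 766 at 5 d. Of the 13 messengers encoded by mitochondrial DNA 8 rose and 4 fell, at a median of 0.13, and together they took 6.49% of normalized counts in each 16 h library and 7.39% and 7.49% at 5 d. Of these messengers 12 rose and 1 fell (median 0.34) with libraries scaled by their totals, and 12 rose and none fell (median 0.54) after quantile normalization. MT-ATP8 rose most, from 6862 and 6819.9 to 9137 and 9522.

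More epithelial genes rose than fell. Of 39 listed genes 26 passed the filter, 13 rose and 6 fell, with a median of 0.20, or 13 and 2 with libraries scaled by their totals. EPCAM, the epithelial adhesion molecule, had 25.6 and 23.2 at 16 h against 81.8 and 92.4 at 5 d, and occludin (OCLN), a tight junction protein, had 26.6 and 31.8 at 16 h against 119 and 86.3 at 5 d. ESRP2, an epithelial splicing regulator, had 4.26 and 4.89 at 16 h against 20.7 and 43.1 at 5 d on 4 and 4 reads at 16 h. Of 9 genes listed as low or absent in the line 3 passed the filter, and EPCAM, GATA3 and ERBB2 all rose, with a median of 1.13. GATA3, a luminal transcription factor, had 52.2 and 70.8 at 16 h against 139.7 and 129 at 5 d. ERBB2 had 566 and 583 at 16 h against 697 and 704 at 5 d. EPCAM, GATA3 and ERBB2 thus ended near their adherent levels of 89.8 and 93.8, 139.6 and 124.8 and 728 and 663. The mucin MUC1 fell, with 487 and 453 at 16 h against 236 and 223 at 5 d. Mesenchymal genes showed 3 rises and 8 falls among 17 of 21 listed, with a median of -0.13 that turned to 0.07, at 6 rises and 6 falls, under scaling by library totals. VIM fell as given above, by 0.85 on the log2 scale, to just above its adherent level of 32153 and 31547. The receptor TGFBR1 had 1456 and 1435 at 16 h against 928 and 969 at 5 d, and TGFBR2 moved the other way, at 0.27 on the log2 scale. Placental genes, silent in most adult tissue, rose in 5 of 7 tested cases of 13 listed, with no fall and a median of 1.80. Besides KISS1 and ALPP these were the pregnancy-specific glycoproteins PSG4, PSG5 and PSG9, near-identical copies, though the call for PSG9 was lost by DESeq2, without the first 16 h library, at 0.29 on the log2 scale, and without either 5 d library. The calls for PSG4 and PSG9 were also lost when limma's moderation had no trend (adjusted p = 0.066 and 0.182), and that for PSG9 on the transformed values as deposited (adjusted p = 0.0541). PSG5 had 2.13 and 2.44 at 16 h against 18.6 and 13.9 at 5 d and 331 and 321 in adherent cells, and rested on 2 reads in each 16 h library for a 7.34-fold rise (95% interval 2.56 to 28.9).

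YAP and TAZ respond to cell spreading and tension. Their list held targets, the 2 coactivators themselves, TEAD factors and upstream kinases, and 12 of 26 tested genes rose and 3 fell (median 0.06). The rises include WWTR1, TEAD1 and STK4 and the falls include LATS1, which are not listed as targets but as parts of the pathway. The list median turned to -0.03 without the first 5 d library and to -0.0071 among genes with a mean of at least 50. ANKRD1, a sensitive target, had 767 and 730.4 at 16 h against 2194 and 2069 at 5 d. The coactivator TAZ itself (WWTR1) had 1189.5 and 1127 at 16 h against 1680.1 and 1733 at 5 d. MYOF, a membrane repair protein, had 5130.0 and 5294 at 16 h against 7606 and 7592 at 5 d, and CTGF, a secreted matrix protein, had 1161 and 1181 at 16 h against 1524 and 1326 at 5 d. The call for CTGF was lost when limma's moderation had no trend. ANKRD1 stayed far below its adherent 12029.8 and 11932. The list of the EGF receptor family and its ligands also held FGF receptors, FGF2, ERRFI1, LRIG1 and LRIG3. In that list 5 of 14 tested genes of 19 listed rose and 2 fell (median 0.10). The rises include FGFR4 and the falls include ERRFI1, which are neither receptors of the family nor its ligands. The ligand amphiregulin (AREG) had 854 and 851 at 16 h against 196 and 237 at 5 d. The partner receptor ERBB3 had 30.9 and 51.3 at 16 h against 84.9 and 94.0 at 5 d. EGFR was not called, with 2611 and 2611 at 16 h against 2662 and 2830.1 at 5 d. Feedback regulators and immediate early genes of ERK signalling fell in 18 of 32 tested cases of 35 listed and rose in 5 (median -0.29), or fell in 16 and rose in 8 with libraries scaled by their totals. FOS, a subunit of the factor AP-1, had 489 and 524 at 16 h against 123 and 119 at 5 d. The growth response factor EGR1 had 1712 and 1722 at 16 h against 616 and 639 at 5 d, while the inhibitor SPRED2 rose by 0.50 on the log2 scale.

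Genes of TGF-beta and BMP signalling fell in 12 of 24 tested cases of 27 listed and rose in 4 (median -0.27), or in 8 with libraries scaled by their totals. PMEPA1, a feedback inhibitor, had 961 and 855 at 16 h against 257 and 249.6 at 5 d. The ligand BMP2 had 347 and 357 at 16 h against 87.0 and 119 at 5 d, and LTBP1, which stores latent TGF-beta in the matrix, had 7073 and 7201 at 16 h against 3229 and 3152 at 5 d. ID2, an inhibitor of differentiation, had 32.0 and 22 at 16 h against 2.07 and 1.54 at 5 d, resting on 2 reads and 1 read at 5 d, a 14.7-fold fall (95% interval 4.74 to 73.8). BMP4 rose, from 308 and 368 to 627 and 501, and so did the transducer SMAD3, from 685 and 765 to 973 and 1028. In the NOTCH list, 5 of 11 tested genes of 18 listed fell and 1 rose (median -0.97). The target HES1 had 204 and 187 at 16 h against 52.8 and 84.7 at 5 d, and a second target, HEY1, had 116 and 92.8 at 16 h against 32.1 and 41.6 at 5 d. The receptor NOTCH1 had 443 and 484 at 16 h against 227 and 246 at 5 d. The WNT list held 5 rises and 5 falls among 21 tested genes of 27 listed (median 0.08). These shares were near the 22.8% higher and 25.5% lower of all genes tested. The coreceptor LRP6 had 532 and 502 at 16 h against 737 and 733 at 5 d. The antagonist DKK1 had 1304 and 1351 at 16 h against 862 and 813 at 5 d. The WNT median turned to -0.12 without the second 16 h library, -0.07 without the first 5 d library, -0.16 without the second and -0.13 among genes with a mean of at least 50.

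The study's own subjects, the polycomb complex PRC2 and the long noncoding RNA SCIRT, were measured as well. Of 13 genes 5 rose and 3 fell (median 0.23), beside 22.8% higher and 25.5% lower among all genes tested. The rises and falls numbered 3 and 3 by DESeq2 and 4 and 3 when limma was fitted to the 4 sphere libraries alone. With libraries scaled by their totals they numbered 7 and 2 (median 0.43). EZH2, the methyltransferase of PRC2, had 162 and 161 at 16 h against 349.9 and 317 at 5 d, a log2 fold change of 1.04 ± 0.12 (SE; adjusted p = 1.42e-09, limma), and stayed under its adherent 518 and 490.1. SCIRT, named RP5-1120P11.1 in the table, had 45.8 and 29.3 at 16 h against 62.1 and 73.9 at 5 d, against 3.77 and 3.04 in adherent cells. Both 5 d values were above both 16 h values, but the difference was not called (adjusted p = 0.0799, limma). It was called by edgeR (adjusted p = 0.0326) and when limma was fitted to the 4 sphere libraries alone (adjusted p = 0.0149), and not by DESeq2. The library kit does not mark strand, so reads of SCIRT and of genes on the other strand cannot be told apart. The cofactors PHF1 and C17orf96 fell, PHF1 with 951 and 907 at 16 h against 587 and 581 at 5 d. Of 23 listed markers of stem-like and tumor-initiating cells 13 passed the filter, 4 rose and 6 fell (median -0.33). The drug exporter ABCG2, which marks side population cells, had 3.20 and 3.66 at 16 h against 55.9 and 69.3 at 5 d. At 16 h it rested on 3 reads in each library, for a 17.9-fold rise (95% interval 7.96 to 50.1), and adherent cells had 103 and 107. SOX9 rose from 553 and 528 to 968 and 947, and SOX4 fell from 1163 and 1054 to 362 and 340.5. BMI1 fell from 525 and 532 to 236 and 268, and the surface marker CD44 fell from 6150.1 and 6121 to 4468 and 4785. The pluripotency factors SOX2 and POU5F1 had at most 1 read per sphere library.

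Genes of stress, survival and signalling outside these groups moved in both directions. NRF2 targets, which protect against oxidants, rose in 11 and fell in 8 of 24 tested cases of 27 listed (median 0.06). Among all genes tested 22.8% were higher and 25.5% lower. The quinone reductase NQO1 had 609 and 642 at 16 h against 2262 and 2243 at 5 d. Thioredoxin reductase (TXNRD1) had 2418 and 2373 at 16 h against 4103 and 4167 at 5 d, and PGD of the pentose phosphate pathway had 1517 and 1540.1 at 16 h against 2784 and 2715 at 5 d. The iron stores moved against these 3, with ferritin heavy chain (FTH1) at 39881 and 39211 at 16 h against 17936 and 18878 at 5 d. Autophagy and lysosome genes fell in 20 and rose in 4 of 32 cases (median -0.24), or in 13 and 9 (median -0.04) with libraries scaled by their totals. Cathepsin B (CTSB), a lysosomal protease, had 6109.6 and 6315 at 16 h against 2233 and 2349 at 5 d, and prosaposin (PSAP) had 16332 and 16555 at 16 h against 8539 and 8774 at 5 d, whereas the lysosomal regulator MITF rose from 131 and 118 to 263 and 344. In the BCL2 family of death regulators 2 of 13 tested genes of 17 listed rose and 6 fell (median -0.28), or 4 and 3 with libraries scaled by their totals. MCL1, a short-lived survival factor, had 15349 and 14916 at 16 h against 9887 and 9948 at 5 d. The death protein BAX had 434 and 398 at 16 h against 282 and 246 at 5 d.

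Amino acid stress genes under ATF4 showed 6 rises and 11 falls among 27 of 30 listed, with a median of -0.14 that turned to 0.06, at 12 rises and 6 falls, under scaling by library totals. PPP1R15A, which restarts translation after stress, had 3263 and 3213 at 16 h against 1579 and 1527 at 5 d, while PSPH of serine synthesis rose from 361 and 373 to 527 and 545. Interferon-stimulated genes rose in 11 and fell in 13 of 35 tested cases of 40 listed (median 0.08), beside 22.8% higher and 25.5% lower among all genes tested. With libraries scaled by their totals 18 of them rose and 9 fell. The antiviral RNA sensor DDX58 had 766 and 809 at 16 h against 1417 and 1511 at 5 d. The guanylate-binding protein GBP1 had 150.3 and 121 at 16 h against 390.3 and 368 at 5 d. The membrane proteins IFITM1 and IFITM3 moved the other way, IFITM3 with 4068 and 4222 at 16 h against 2026 and 1972 at 5 d. Circadian clock genes fell in 11 of 16 tested cases of 19 listed and rose in 2 (median -0.90). The repressor PER1 had 1198 and 1026 at 16 h against 541 and 485 at 5 d, and RORA, an activator of the clock loop, had 538 and 473 at 16 h against 150.1 and 149 at 5 d. The activator NPAS2 rose, from 1443 and 1408 to 1729 and 1750.1.

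Among genes of insulin and insulin-like growth factor signalling, 6 of 12 tested genes of 15 listed fell and 1 rose (median -0.22), or 3 and 4 with libraries scaled by their totals. IGFBP3, the main carrier of these growth factors, had 3130.5 and 3109 at 16 h against 388 and 416 at 5 d and, in adherent cells, 386 and 376. The receptor substrate IRS2 had 1537 and 1529 at 16 h against 638 and 544 at 5 d, and the receptor IGF1R was not called at 566 and 627 at 16 h against 621 and 639 at 5 d. S100 calcium-binding proteins showed 1 rise and 4 falls among 9 of 14 listed, with a median of -0.13 that turned to 0.07, at 4 rises and 3 falls, under scaling by library totals. S100P had 750.4 and 733 at 16 h against 316 and 329.7 at 5 d, and S100A2 rose from 161 and 132 to 219 and 256.

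**Figure D5:**
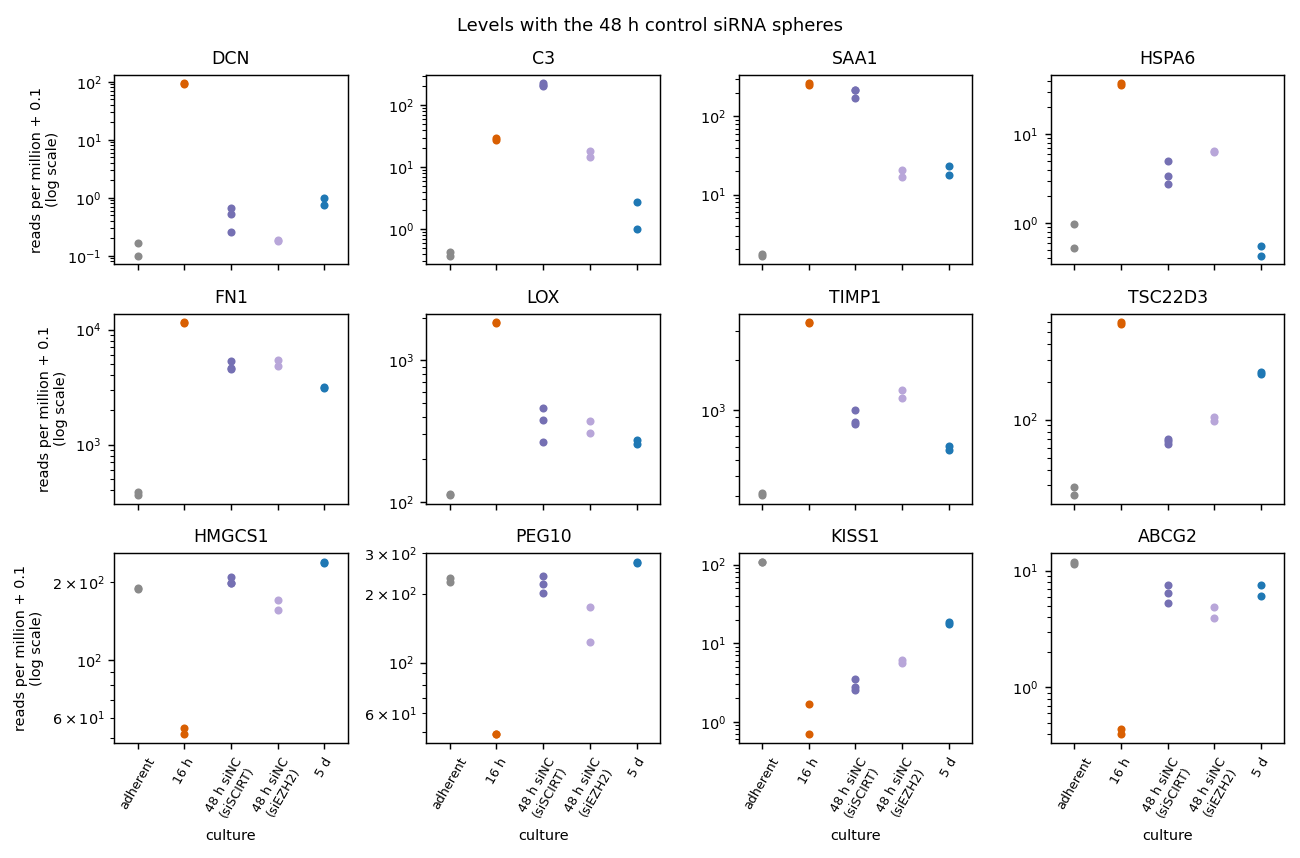
Reads in CPM plus 0.1 (vertical, log scale) of 12 genes in adherent cells, 16 h spheres, 48 h spheres with control siRNA of both RNAi experiments, and 5 d spheres, 1 point per library. DCN, LOX, TIMP1 and FN1 are highest at 16 h, C3 is highest in the 48 h controls of the siSCIRT experiment, and HMGCS1 and ABCG2 are lowest at 16 h.

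Spheres kept for 48 h with a control siRNA gave an intermediate time, from separate experiments. They are set beside the other cultures in CPM, reads scaled to an equal total per library, and were not tested against them. The 3 controls of the siSCIRT experiment and the 2 of the siEZH2 experiment also differed from each other. DCN, at 94.3 and 92.9 CPM at 16 h, was between 0.08 and 0.56 in the 5 controls. FN1 was between 4527 and 5441 in them, under the 11565 and 11483 of 16 h and above the 3118 and 3179 of 5 d. TIMP1 and CA9 also lay between their 16 h and 5 d levels in all 5, CA9 with 10.8 to 27.2 against 8.80 and 7.21 at 5 d. Acute phase genes followed another order: C3 had 212, 199.8 and 226 in the siSCIRT controls and 18 and 14.3 in the siEZH2 controls, against 27.4 and 29.4 at 16 h. SAA1 was from 173 to 217 in the former and at 20.6 and 16.9 in the latter. TSC22D3 was lower in all 5 controls, at 63.4 to 104, than in the 5 d spheres, at 238 and 230.0. HMGCS1 had 156 to 210.3 and ABCG2 3.83 to 7.47 in the controls, both far above their 16 h levels of 54.8 and 51.7 for HMGCS1 and 0.298 and 0.341 for ABCG2. MKI67 set the control experiments apart, with 304, 301 and 377 in the siSCIRT controls and 22.1 and 16.2 in the siEZH2 controls, against 191 and 187 at 5 d. These values come from tables that were normalized separately, and the transfected cells differ from the culture series in more than time.

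Signs of RNA composition also moved with time. Small RNAs of polymerase III, which carry no poly(A) tail, rose in 3 of the 5 that passed the filter, of 17 listed (median 0.89). RN7SL1 had 145 and 166 at 16 h against 568 and 527 at 5 d, and 15.8 and 14.6 in adherent cells. RN7SK had 861 and 867 at 16 h against 1333 and 1365 at 5 d, and 33.2 and 37.1 in adherent cells. Mitochondrial ribosomal RNA took 0.72% of normalized counts in each adherent library, 2.03% and 2.04% at 16 h and 2.24% and 2.22% at 5 d. The adherent libraries thus differed from all sphere libraries in these RNAs, and the adherent levels above were not adjusted for this. Histone genes of the HIST clusters fell in 7 of 9 tested cases, of 23 listed, with a median of -1.02. HIST1H2BK had 2574 and 2669 at 16 h against 1257 and 1151 at 5 d. Others, such as HIST1H3B, HIST1H4B and HIST1H4C, did not pass the filter. When the 11623 protein-coding genes with a known transcript length were split by it into 5 groups of near-equal size, the median log2 fold change was -0.13 in the group of the shortest and 0.11 in that of the longest. Without ribosomal proteins the shortest group had -0.12. The part of RNA length or quality in the falls of short RNAs, ribosomal protein genes among them, was not tested. In bulk RNA, fewer cells that express a gene and less RNA per cell cannot be told apart.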

How the data were processed

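The 19 libraries were made with a TruSeq RNA v2 kit, per the labels, which does not mark strand. Reads were processed with TopHat2, Partek and CASAVA 1.4 against hg19, per the submitters' processing notes, which give these names with no order. For the culture series and the siSCIRT experiment the deposited values are on a log2-like scale, counts that the authors had divided by size factors and then variance-stabilized with DESeq2, per the labels. For the siEZH2 experiment the deposited values are a signal, counts divided by size factors by the authors. The culture values were turned back to normalized counts by the exact inverse of the transform, and dividing by the step of each library gave whole reads for 100% of values within a tolerance of 0.05 reads. Library depth was taken from these reads, which entered edgeR and DESeq2 as alternatives.

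Log2 of the normalized count plus 1 was fitted with limma 3.58.1 (R 4.3.3, trend and robust settings) over the 6 culture libraries, since the adherent ones add to the estimate of spread. Genes with a mean of at least 10 over these libraries were tested for 5 d against 16 h, and p-values were adjusted over all 13789 by Benjamini-Hochberg. Fold changes of weak genes are understated on this scale. The fit was tested on simulated data. Text names the 15 largest rises and falls whose higher group averaged 100 or more and whose groups did not overlap, up to 4 called members of each list with the smallest adjusted p, and members needed to describe a role. Some genes and a list that this rule covers are not reported here. Members and lists were chosen with earlier results of these data known, and lists got no test. Intervals and floors on reads cover counting error only. Alternatives were edgeR 4.0.16, DESeq2 1.42.0, other filters, pseudocounts and scalings, and leaving out each library. The 8 columns of libraries with siRNA against SCIRT or EZH2 were not used here. Normalized counts are not per length, so levels are compared within a gene.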

Additional observations from a re-analysis of the deposited data

How the results depend on the processing

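The counts of genes called lay between 4828, with limma's moderation fitted without a trend, and 7277, with libraries scaled by their totals, against 6665 in the reported fit. edgeR called 6639 genes and DESeq2 5079, of which 6475 and 5077 were also called in the same direction by limma. Scaling by library totals gave 5137 higher and 2140 lower calls, because the authors' normalized totals were lower at 5 d than at 16 h. No other setting moved a count of calls over all genes tested by over 1.5 times. Without 1 library at a time, 5574 to 6187 genes were called, 2637 to 2839 of them higher and 2909 to 3348 lower. No replicate label marks a shared culture, and same-numbered libraries of 16 h and 5 d spheres did not deviate together (correlation of deviations 0.0049). With the replicate number as a block, 6771 genes were called, 3204 higher and 3567 lower.

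After quantile normalization the log2 fold change turned to 0.20 for ENO1, 0.20 for CALR, 0.0540 for HSPA8, 0.20 for BCL2L1, 0.46 for NPM1, 0.0608 for MT-ND2, 0.17 for FKBP5, 0.0326 for MT2A and, as medians, 0.0560 for the line's markers, 0.0319 for the nuclear respiratory chain and 0.0124 for MondoA targets. Under scaling by library totals it turned to 0.0789 for BCL2L1, 0.0705 for NPM1 and 0.13 for NR3C1, and the medians turned to 0.0717 for CDK inhibitors and G1 cyclins, 0.0342 for PPAR targets, 0.16 for the nuclear respiratory chain, 0.17 for MondoA targets, 0.0606 for ATF4 targets, 0.0674 for mesenchymal genes, 0.0439 for the line's markers and 0.0674 for S100 proteins. Leaving out 1 library moved the uncalled genes NR3C1 between -0.17 and 0.0276, SREBF1 between -0.0543 and 0.0683 and RPL9P9 between -8.98 and 0.51. It moved the median of ATF4 targets between -0.16 and 0.0055. The median of the YAP and TAZ list moved between -0.0302 and 0.0795 and that of WNT genes between -0.16 and 0.23. The cause of these turns was not tested. Genes with few reads at their lower time, such as DCN, ABCG2 and ID2, are limited by depth, as their intervals show.

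Counts within single gene lists moved more. Fitted without a trend, the rises and falls numbered 2 and 4 for integrins and 0 and 9 for ribosome assembly. They were 4 and 2 for aminoacyl-tRNA synthetases, 9 and 11 for the nuclear respiratory chain and 4 and 1 for mitochondrial messengers. Liver X receptor genes had 2 and 2, ATF4 targets 3 and 6, mesenchymal genes 1 and 5 and epithelial genes 9 and 3. The YAP and TAZ list had 7 and 2, ERK feedback genes 1 and 16 and WNT genes 2 and 5. The BCL2 family had 0 and 3 and placental genes 3 and 0. Of the 52 lists, 24 had a count of rises or falls moved by over 1.5 times in this setting, 32 under scaling by library totals, 16 after quantile normalization, 13 by DESeq2 and 5 to 10 when 1 library was left out. Scaling by library totals ended the call for TOP2A (adjusted p = 0.364) and gave calls to EGFR, IGF1R, NFKB1, PDK1 and SREBF1, which the reported fit did not call.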

Other observations

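Antigen presentation genes, which were on no list and were picked after their values were seen, moved with time in suspension. HLA-B, the heavy chain of an HLA class I molecule, had 10509.5 and 10293 at 16 h against 1408 and 1493 at 5 d in normalized counts, a log2 fold change of -2.84 ± 0.04 (SE; adjusted p = 2.69e-37, limma). HLA-C and HLA-E fell by 1.5 and 1.20 on the log2 scale, and B2M, the light chain they share, fell by 0.47. In adherent cells HLA-B had 1865 and 1953, so its 5 d level was below the adherent level as well. Among class II genes HLA-DRA had 2110.4 and 2149.5 at 16 h against 676 and 618 at 5 d and its invariant chain CD74 8143 and 8378 at 16 h against 2469.9 and 2473 at 5 d. HLA-DRB1 fell by 2.65 and HLA-DPA1 by 2.23. HLA genes are polymorphic and similar to each other, so reads may be shared between them.

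Metallothioneins, small proteins that bind zinc and copper and were also picked after their values were seen, fell. MT1G had 82.1 and 104 at 16 h against 3.11 and 0 at 5 d, and MT1F had 53.3 and 69.6 at 16 h against 15.5 and 3.08 at 5 d. MT2A, the most abundant of them, fell by 0.50 on the log2 scale, which turned to 0.0326 after quantile normalization, and its call was lost when either 16 h library was left out. ALOX15B, a lipoxygenase, had 2519.7 and 2426 at 16 h against 504 and 491 at 5 d and no read in adherent cells, and the pattern receptor TLR2 had 1666 and 1714 at 16 h against 197 and 305 at 5 d.

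Some genes were highest at 5 d of the 3 cultures, again picked after their values were seen. PTPRJ, a receptor-type tyrosine phosphatase, had 381 and 379 in adherent cells and 534 and 574 at 16 h against 1702 and 1770.1 at 5 d. ENPP1, an ectoenzyme that makes pyrophosphate, had 1305 and 1335 in adherent cells and 1822 and 1798 at 16 h against 4338 and 4902 at 5 d. EHHADH, an enzyme of peroxisomal fatty acid oxidation, had 43.7 and 29.3 at 16 h against 115 and 125 at 5 d.

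Among 372 long intergenic noncoding RNAs that passed the filter 73 rose, or 19.62%, and 52 fell, or 13.98%. Their median log2 fold change was 0.16. Among 11759 protein-coding genes 2796 rose, or 23.78%, and 3185 fell, or 27.09%. Both shares were thus lower for the noncoding RNAs than for protein-coding genes. The pseudogene RPL9P9 had 0 and 722 at 16 h against 1.04 and 0 at 5 d and 499 and 482 in adherent cells, so 1 library of 16 h spheres stood apart from the other for this copy of a ribosomal protein gene.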
